A study of Mus musculus with 4 samples.

Results

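Transcript levels of the EGF receptor family were compared between AML12 cells, a mouse hepatocyte line, cultured under 2D and 3D conditions. The 10 genes were taken by name from the 31828 genes of the expression table. They comprise 6 ligands (Tgfa, Hbegf, Areg, Ereg, Btc and Epgn), 3 receptors (Egfr, Erbb2 and Erbb3) and Errfi1, an inhibitor of the receptors. The 2D culture was a flat layer in a dish and the 3D culture was embedded in Matrigel, a basement membrane extract, with 2 libraries of each and 4 in all. Every culture had the same medium with 10% fetal calf serum, insulin, transferrin, selenium and 40 ng/mL dexamethasone, and the labels name no ligand added to it. Matrigel was present in the 3D culture only, and whether it held EGF receptor ligands was not tested. Replication was blocked in every culture with 1 mM hydroxyurea, over 24 h for the 2D and over 36 h for the 3D cells. It was added at a set confluence in 2D and after 24 h of growth in 3D. Neither the treatment time nor this difference can be told apart from culture. AML12 is a single line established from a mouse that carried a human TGFA transgene under a metallothionein promoter. The table holds 0 rows named TGFA, and whether transgene reads entered the mouse Tgfa row was not tested.

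The ligands are made as membrane-spanning precursors, and metalloproteases release the part that carries the EGF motif, a stretch with 6 cysteines that form 3 disulphide bonds. Released ligand binds a receptor tyrosine kinase, the receptors pair with themselves or each other, and the kinases pass the signal to Ras and ERK and to PI3 kinase. In liver the pathway is known for its part in hepatocyte proliferation and regeneration, and TGF-alpha, amphiregulin and HB-EGF are among the ligands that hepatocytes and neighbouring cells produce.

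The coding stretches of the EGF motif are shown for 5 of the ligands because this motif is what the receptor binds and what makes these genes one family. They were read from the GENCODE M21 transcripts on GRCm38, from the first to the last cysteine codon of the motif, and capitals mark the 6 cysteine codons.
Tgfa: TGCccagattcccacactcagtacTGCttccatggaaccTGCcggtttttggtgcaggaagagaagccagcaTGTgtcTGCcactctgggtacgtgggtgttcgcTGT
Areg: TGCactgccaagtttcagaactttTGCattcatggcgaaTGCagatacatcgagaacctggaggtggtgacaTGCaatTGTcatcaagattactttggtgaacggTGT
Ereg: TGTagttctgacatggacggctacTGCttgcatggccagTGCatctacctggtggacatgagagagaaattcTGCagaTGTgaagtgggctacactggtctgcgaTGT
Btc: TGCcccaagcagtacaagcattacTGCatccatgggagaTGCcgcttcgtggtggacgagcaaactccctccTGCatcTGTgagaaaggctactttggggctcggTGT
Epgn: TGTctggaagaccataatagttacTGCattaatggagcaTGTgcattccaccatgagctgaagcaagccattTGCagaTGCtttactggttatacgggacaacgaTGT
Each stretch is 108 bases or 36 codons long, and the 6 cysteine codons are spaced by 7, 4, 10, 1 and 8 other codons in all 5 genes. The pattern used to find the motif itself fixed the spacings of 7, 1 and 8 codons and held the others to narrow ranges. Hbegf was not searched. Over all 108 bases, cysteine codons included, identity between pairs ranged from 45.4% for Tgfa and Ereg to 62.0% for Tgfa and Btc. The motif lies at codons 46 to 81 of 159 in Tgfa and at codons 139 to 174 of 248 in Areg, which has the longest coding sequence of the 5.

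Values are TPM (transcripts per 1000000), which are corrected for transcript length and sum to 1000000 in every library, so that levels of different genes can be ranked but sequencing depth is unknown. The libraries held from 13891 to 14256 genes at 1 TPM or more. Pearson's r on log2(TPM + 1), over the 14116 genes with a mean of at least 1 TPM, was 0.991 within 2D, 0.992 within 3D and 0.951 to 0.952 across cultures. The hepatocyte keratins Krt18 and Krt8 fell in 3D, from means of 6207 to 3297 TPM and of 3220.2 to 1821 TPM, and with them the 11 hepatocyte markers summed to 9659 and 9460 TPM in 2D and to 5703 and 5781 TPM in 3D. Albumin, a defining hepatocyte marker, was near the limit in 2D, at 0.819 and 1.20 TPM, and stood at 12.7 and 10.0 TPM in 3D. Without keratins, the 9 other hepatocyte markers in the table summed to 131 and 134 TPM in 2D and to 632 and 615 TPM in 3D. Serpina1a and Apoa2 were below 1 TPM in every library. Of 18 markers of leukocytes, endothelial, stellate and biliary cells in the table, 13 were below 1 TPM in every library, and the sum of the 16 that are not keratins ranged from 70.3 to 73.8 TPM in 2D and from 67.8 to 71.7 TPM in 3D. In the limma test described below, which 50.5% of all tested genes passed, 7 of the 9 tested hepatocyte markers were higher and 2 lower in 3D. Of the 5 markers of other cells that were tested, 1 was higher (Sox9, 0.62 on the log2 scale) and 3 were lower in 3D, among them Des, which fell by 0.91. Cd68, at 18.3 to 25.5 TPM over the libraries, did not pass. The biliary keratins Krt19 and Krt7 were the highest of these markers, at 1647 to 1728 and 492 TPM in 2D and at 1174 to 1226 and 307 to 320 TPM in 3D. The part of these shifts in the results was not tested.

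Of the 10 genes, 9 passed the filter of a mean of at least 1 TPM and were tested with limma on log2(TPM + 1). At an adjusted p-value under 0.05, 3 were higher in 3D-cultured cells (Btc, Erbb2 and Ereg), 3 were lower (Hbegf, Egfr and Erbb3) and 3 did not pass (Areg, Errfi1 and Tgfa). Of all 14116 tested genes, 50.5% passed that threshold, 23.4% higher and 27.1% lower, so that 6 of 9 (66.7%) is read against a background of which about as many genes passed as not. The median log2 fold change of the 9 genes was -0.09, beside -0.04 for all tested genes. Values of 3D and 2D libraries did not overlap for 8 of the 9 genes, which was also the case for 77.5% of all tested genes. The 4 largest changes that passed lay between -0.70 and 0.97 on the log2(TPM + 1) scale, on which changes of low genes are compressed, and 27.1% of all tested genes passed the threshold with a change over 0.5 in either direction. The labels do not say whether replicate libraries came from separate cultures, so that p-values measure only the spread between these libraries.

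**Figure D1:**
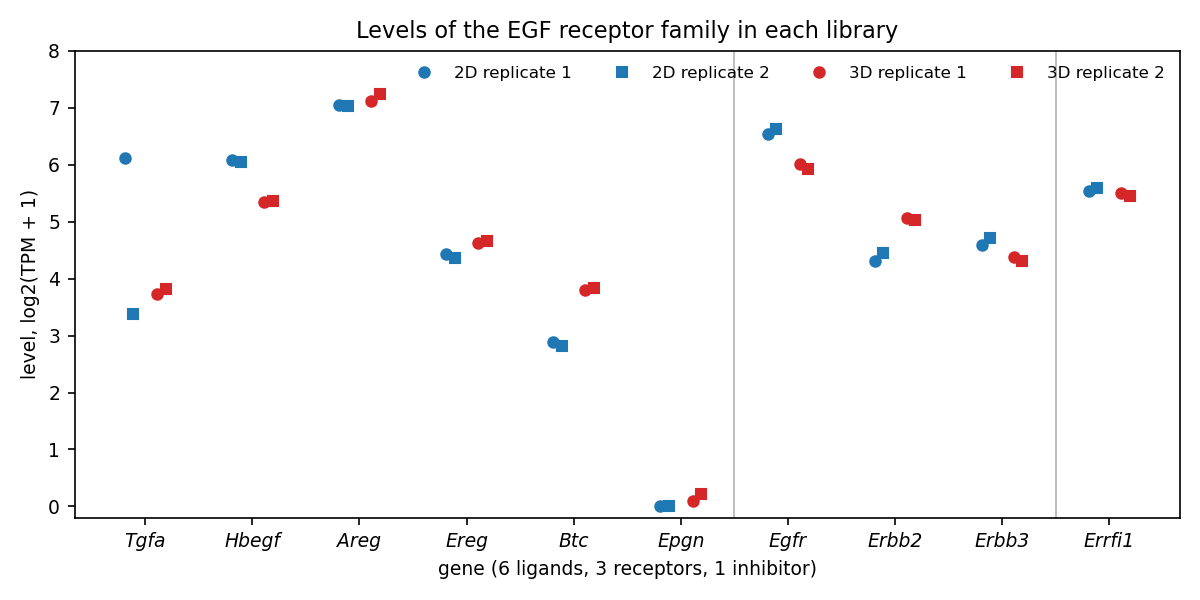
Levels of the 10 genes in each library as log2(TPM + 1), with 2D libraries in blue and 3D libraries in red, circles for replicate 1 and squares for replicate 2. Areg is highest in both cultures at 130.2 to 150.2 TPM, Epgn is at or near 0, and the 2D libraries of Tgfa stand far apart at 68.4 and 9.41 TPM.

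Among the ligands that passed the threshold, Btc changed most. Btc (ENSMUSG00000082361, chromosome 5, 91357261 to 91402994, minus strand, GRCm38) encodes betacellulin, a ligand of both Egfr and Erbb4. Its level was 6.38 and 6.09 TPM in 2D and 12.9 and 13.3 TPM in 3D. Both 3D libraries stood above both 2D libraries, with little spread within a culture. The mean rose from 6.23 ± 0.204 to 13.1 ± 0.279 TPM (SD, n = 2 each), with a ratio of 2.11. On the log2(TPM + 1) scale the fold change was 0.97 (SE 0.08, 95% confidence interval 0.76 to 1.17, limma adjusted p 0.00122). Over all 4 libraries its mean was the lowest of the 5 tested ligands, with 32.5% of tested genes below it, and fewer cells with the RNA cannot be told apart from less RNA per cell in these bulk samples.

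Hbegf changed in the opposite direction. Hbegf (ENSMUSG00000024486, chromosome 18, 36504929 to 36515805, minus strand) encodes heparin-binding EGF-like growth factor, which binds Egfr and Erbb4 and is retained by heparan sulphate at the cell surface and in the matrix. Its level was 66.5 and 64.9 TPM in 2D and 39.6 and 40.2 TPM in 3D. The cultures were separated by far more than the libraries of a culture. The mean fell from 65.7 ± 1.10 to 39.9 ± 0.446 TPM (SD, n = 2 each), 1.64-fold lower in 3D. The log2 fold change was -0.70 (SE 0.05, 95% confidence interval -0.83 to -0.58, limma adjusted p 0.000807), the smallest p-value of the 9 genes.

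Areg and Ereg, neighbours on chromosome 5, showed smaller differences. Areg (ENSMUSG00000029378, chromosome 5, 91139599 to 91148432, plus strand) encodes amphiregulin, an Egfr ligand that also binds heparan sulphate. It was the most abundant member in every library, at 132 and 130.2 TPM in 2D and at 137 and 150.2 TPM in 3D. The libraries did not overlap, but the 3D replicates differed from each other by more than the nearest 3D and 2D libraries did. The means were 131 ± 1.27 and 144 ± 8.99 TPM (SD, n = 2 each), and the log2 fold change of 0.13 (SE 0.06, 95% confidence interval -0.02 to 0.28) did not pass the threshold (limma adjusted p 0.116). The interval leaves room for no difference and for a rise of 0.28 on the log2 scale.

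Ereg (ENSMUSG00000029377, chromosome 5, 91074622 to 91093646, plus strand) encodes epiregulin, a ligand of Egfr and Erbb4. Its level was 20.5 and 19.6 TPM in 2D and 23.6 and 24.2 TPM in 3D. Both 3D libraries were above both 2D libraries by a small margin. The 2D mean of 20.05 ± 0.631 TPM was exceeded by a 3D mean of 23.9 ± 0.465 TPM (SD, n = 2 each), and the log2 fold change was 0.24 (SE 0.06, 95% confidence interval 0.08 to 0.41, limma adjusted p 0.0324). This call was lost in each of the 4 fits that left out one library, with limma adjusted p-values of 0.0561 to 0.146.

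Tgfa (ENSMUSG00000029999, chromosome 6, 86195223 to 86275719, plus strand) encodes TGF-alpha, a high-affinity Egfr ligand. Its level was 68.4 and 9.41 TPM in 2D and 12.3 and 13.1 TPM in 3D. One 2D library was far above and the other slightly below both 3D libraries, so that the cultures overlapped. The 2D replicates differed by 2.74 on the log2(TPM + 1) scale, a difference that only 14 of 14116 tested genes (0.0992%) exceeded, while the median over tested genes was 0.0961. In 3D the replicates differed by 0.0832, beside a median of 0.0769. The means of 38.9 ± 41.7 and 12.7 ± 0.557 TPM (SD, n = 2 each) gave a log2 fold change of -0.98 with a wide interval (SE 0.90, 95% confidence interval -3.35 to 1.40, limma adjusted p 0.410). Without 2D replicate 1 the value turned to 0.39 (limma adjusted p 0.0445) and without 2D replicate 2 it was -2.35 (limma adjusted p 0.00230), so no direction can be given for Tgfa. The gene is annotated with 4 transcripts of 410 to 4527 bases, of which 2 are protein coding. The table gives one value per gene, and which transcripts carried the 2D difference was not tested.

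Epgn (ENSMUSG00000035020, chromosome 5, 91027464 to 91035215, plus strand), which encodes epigen, a low-affinity Egfr ligand, was listed at 0 in both 2D libraries and at 0.0690 and 0.159 TPM in 3D. It lay below the filter and was not tested, and no fold is given against a group listed at 0.

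**Figure D2:**
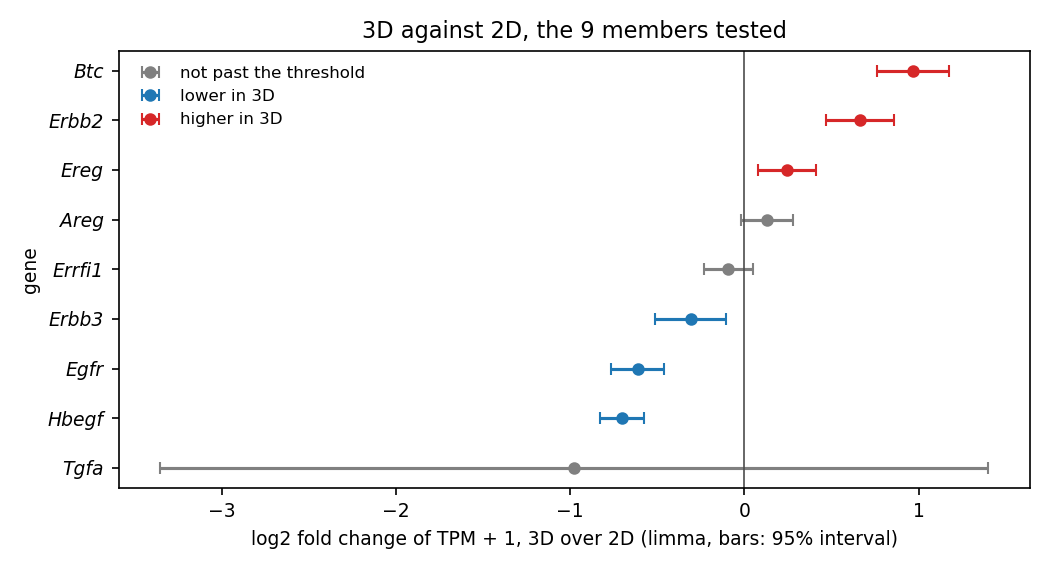
Log2 fold changes of 3D over 2D on log2(TPM + 1) for the 9 tested genes, with 95% confidence intervals from limma. The intervals of Btc and Erbb2 lie well above 0 and those of Hbegf and Egfr well below, while that of Tgfa runs from -3.35 to 1.40.

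Summed over the 6 ligands, TPM was 294 and 230.2 in 2D and 226 and 241 in 3D. The first 2D library was highest, and the cultures overlapped. Without Tgfa, a choice made after its values were seen, the sums were 225 and 221 in 2D and 214 and 228 in 3D. These overlapped as well, at means of 223 ± 3.21 and 221 ± 10.2 TPM (SD, n = 2 each), a ratio of 0.990. The composition of that sum shifted. Hbegf contributed 29.5% and 29.4% in 2D and 18.5% and 17.6% in 3D, whereas Areg contributed 58.6% and 58.97% in 2D and 64.3% and 65.8% in 3D. The share of Btc was 2.83% and 2.76% in 2D and 6.06% and 5.84% in 3D. Ereg gave 9.10% and 8.88% in 2D and 11.03% and 10.6% in 3D. The libraries of the cultures did not overlap for any of these 4 shares, which sum to a fixed total and therefore do not move independently. The level of Areg relative to Hbegf was 1.99 and 2.01 in 2D and 3.47 and 3.73 in 3D.

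The receptors changed in different directions. Egfr (ENSMUSG00000020122, chromosome 11, 16752203 to 16918158, plus strand), the receptor for all 6 ligands, had 92.3 and 97.6 TPM in 2D and 63.5 and 59.9 TPM in 3D. Both 3D libraries were below both 2D libraries. The mean fell from 94.9 ± 3.74 to 61.7 ± 2.56 TPM (SD, n = 2 each), 1.54-fold lower, with a log2 fold change of -0.61 (SE 0.06, 95% confidence interval -0.76 to -0.46, limma adjusted p 0.00168). Egfr remained the most abundant receptor in every library. The antisense gene Egfros, which overlaps Egfr over 15272 bases on the opposite strand, was lower too, at 18.4 and 19.2 TPM in 2D and 12.0 and 11.3 TPM in 3D (log2 fold change -0.65, SE 0.07, limma adjusted p 0.00290). The library kit was stranded and the reads were aligned with the strand given, but whether Egfr reads entered the Egfros value was not tested.

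Erbb2 (ENSMUSG00000062312, chromosome 11, 98412470 to 98437716, plus strand) has no known ligand of its own and acts as the partner of the other receptors. Its level was 18.9 and 20.9 TPM in 2D and 32.5 and 31.6 TPM in 3D. Both 3D libraries were clearly above the 2D libraries. The mean rose from 19.9 ± 1.44 to 32.1 ± 0.627 TPM (SD, n = 2 each), with a ratio of 1.61 and a log2 fold change of 0.67 (SE 0.07, 95% confidence interval 0.47 to 0.86, limma adjusted p 0.00274). Mien1, which overlaps its end by 9 bases on the opposite strand, did not pass the threshold (log2 fold change 0.13, limma adjusted p 0.121).

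Erbb3 (ENSMUSG00000018166, chromosome 10, 128567523 to 128589652, minus strand), a neuregulin receptor with little kinase activity of its own, had 22.9 and 25.3 TPM in 2D and 19.8 and 18.8 TPM in 3D. The libraries did not overlap, although the gap between the nearest libraries of the cultures was not much wider than that between the 2D replicates. The mean fell from 24.1 ± 1.68 to 19.3 ± 0.660 TPM (SD, n = 2 each), with a log2 fold change of -0.31 (SE 0.08, 95% confidence interval -0.51 to -0.10, limma adjusted p 0.0287). The call was lost without 2D replicate 2 (limma adjusted p 0.0868), without 3D replicate 1 (0.0817) and without 3D replicate 2 (0.125), and was kept without 2D replicate 1.

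Summed receptor TPM was 134 and 144 in 2D and 116 and 110.3 in 3D, without overlap, at means of 139 ± 6.87 and 113 ± 3.85 (SD, n = 2 each) and a ratio of 0.814. Within that sum Egfr made up 68.8% and 67.9% in 2D and 54.9% and 54.3% in 3D. Erbb2 made up 14.1% and 14.5% in 2D and 28.1% and 28.7% in 3D. The share of Erbb3 ranged from 17.1% to 17.6% over the 4 libraries. The ratio of Egfr to Erbb2 TPM was 4.90 and 4.67 in 2D and 1.95 and 1.89 in 3D. The RNA of the partner receptor was thus closer to that of Egfr in both 3D libraries than in either 2D library.

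**Figure D3:**
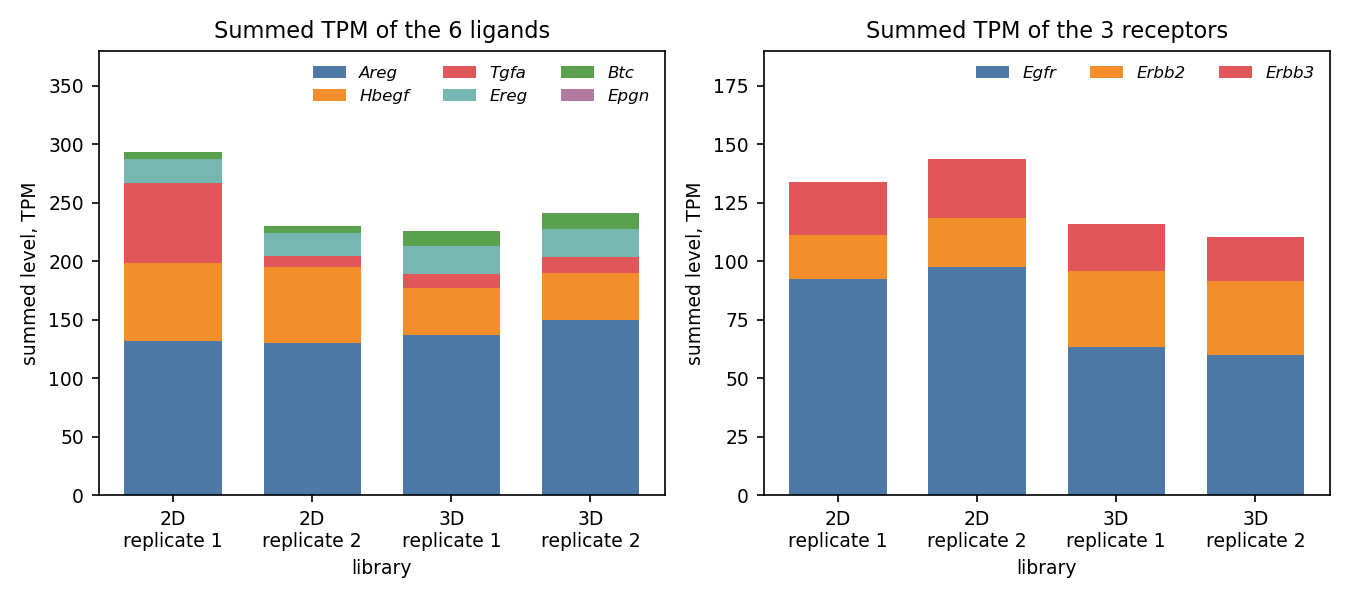
Stacked TPM of the ligands and of the receptors in each of the 4 libraries, starting at 0. The ligand sum of 2D replicate 1 is highest at 294 TPM through Tgfa, and the Erbb2 part of the receptor sum is larger in both 3D libraries than in both 2D libraries.

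Errfi1 (ENSMUSG00000028967, chromosome 4, 150853919 to 150868892, plus strand) encodes MIG6, which binds the kinase domains of Egfr and Erbb2 and inhibits them, and is itself induced by receptor signalling. Its level was 45.6 and 47.4 TPM in 2D and 44.3 and 42.7 TPM in 3D. The 3D libraries were lower by a small margin. The means were 46.5 ± 1.28 and 43.5 ± 1.12 TPM (SD, n = 2 each), and the log2 fold change of -0.09 (SE 0.05, 95% confidence interval -0.23 to 0.05) did not pass the threshold (limma adjusted p 0.215). Egfr TPM over Errfi1 TPM was 2.03 and 2.06 in 2D and 1.43 and 1.40 in 3D.

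In order of mean TPM, 2D-cultured cells had Areg first, then Egfr, Hbegf, Errfi1, Tgfa, Erbb3, Ereg, Erbb2, Btc and Epgn. The range of Tgfa in 2D covered those of its neighbours Errfi1 and Erbb3, and Ereg and Erbb2 overlapped, while the other neighbours in the order were separated. In 3D-cultured cells the order was Areg, Egfr, Errfi1, Hbegf, Erbb2, Ereg, Erbb3, Btc, Tgfa and Epgn, and among neighbours only Btc and Tgfa overlapped. Hbegf thus lay above Errfi1 in both 2D libraries and below it in both 3D libraries. Erbb2 lay below Erbb3 in 2D and above it in 3D.

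The genes with the most similar pattern over the 4 libraries were taken for the members with the largest changes that passed, by the Euclidean distance between log2(TPM + 1) values centred per gene. For Btc these were Atp6ap2, a subunit associated with the vacuolar proton pump (distance 0.0220, log2 fold change 0.98), Tmem205 (0.0241, 0.98) and Neu1, a lysosomal sialidase (0.0284, 0.97). For Hbegf they were Nudt18 (distance 0.00730), Leprot (0.0122) and Kif2c, a mitotic kinesin (0.0124), each with a log2 fold change of -0.70. With 4 libraries in 2 cultures, such a distance mainly selects genes with an equal difference between cultures.

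Of the 6 ligand genes, 4 lie within 375.5 kb on chromosome 5 (91027464 to 91402994, GRCm38), in the order Epgn, Ereg, Areg and Btc. Their levels spanned the whole range of the family, from Epgn at or near 0 to Areg, the most abundant member. Of the 3 that were tested, only Btc changed by more than 0.5 on the log2 scale. The table lists 2 other genes within that span. Gm19610, an antisense gene that overlaps the first 152 bases of Ereg on the opposite strand, had a value of -0.59 on the log2 scale (limma adjusted p 0.0208), a call that was lost without 2D replicate 2 and without either 3D replicate (limma adjusted p 0.0567 to 0.0855). Gm19619, a long intergenic RNA between Areg and Btc, had 0.18 (limma adjusted p 0.251). Beyond the span, chosen for their position, the chemokine genes Cxcl1 and Cxcl2 rose by 2.53 and 2.01, Mthfd2l had 0.16 (limma adjusted p 0.3003) and Parm1 fell by 0.72.

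**Figure D4:**
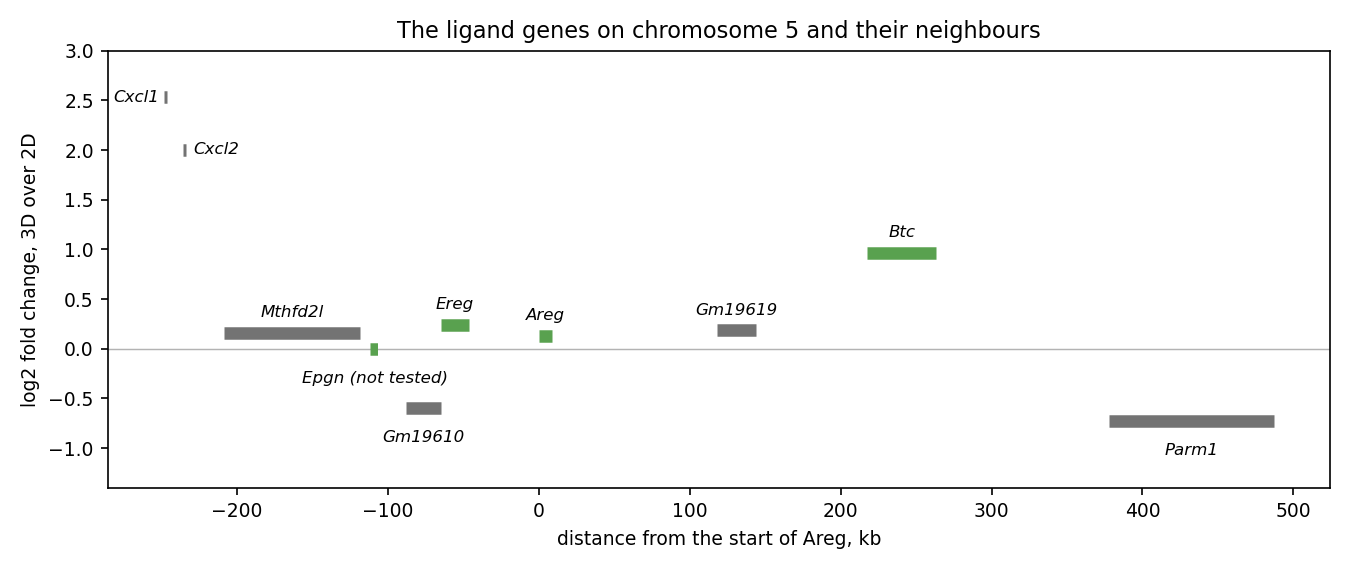
Log2 fold change of 3D over 2D for genes around the ligand cluster of chromosome 5, by distance in kb from the start of Areg, with ligands in green and neighbouring genes in grey. Cxcl1 and Cxcl2 stand at 2.53 and 2.01 beyond one end of the cluster, Btc at 0.97 is the highest within it, and Epgn, which was not tested, is drawn at 0.

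Promoters are shown for the most abundant ligand, for the ligand with the largest change among those that passed and for the inhibitor, each as the 200 bases before a RefSeq start on GRCm38.p6, 5′ to 3′ on the gene's strand. RefSeq promoters were found for 7 of the 10 genes in 8 windows. Capitals mark each match to the letters searched. The cyclic AMP response element was searched as TGACGTCA on both strands. AP-1 was searched as TGANTCA, also on both strands. For TEAD factors the letters were GGAATG, on both strands. The GC box was searched as GGGCGG on both strands of each window. The E box was taken as CACGTG, which reads the same on both strands. For the TATA box the letters TATAAA were searched on the gene strand only. None of the matches overlapped another apart from a pair of GC boxes in Errfi1.
Areg, chr5:91139399-91139598, plus strand: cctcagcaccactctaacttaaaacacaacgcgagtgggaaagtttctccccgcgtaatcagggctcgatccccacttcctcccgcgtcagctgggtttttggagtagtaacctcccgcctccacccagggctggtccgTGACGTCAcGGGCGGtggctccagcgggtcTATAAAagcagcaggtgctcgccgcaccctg
Errfi1, chr4:150854870-150855069, plus strand: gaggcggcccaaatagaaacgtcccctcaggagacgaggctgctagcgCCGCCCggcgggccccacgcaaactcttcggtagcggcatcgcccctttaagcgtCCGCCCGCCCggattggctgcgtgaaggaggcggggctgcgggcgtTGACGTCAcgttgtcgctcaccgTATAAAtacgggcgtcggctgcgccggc
Btc, chr5:91402995-91403194, minus strand: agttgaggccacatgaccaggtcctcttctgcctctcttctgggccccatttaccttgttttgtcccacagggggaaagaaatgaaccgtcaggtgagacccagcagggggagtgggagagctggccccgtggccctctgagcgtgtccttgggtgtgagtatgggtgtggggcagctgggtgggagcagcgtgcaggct
Areg and this Errfi1 start share a cyclic AMP response element, at 61 to 54 and 51 to 44 bases before the start, followed by a TATA box at 31 to 26 and 28 to 23 bases. The same windows of all 32851 RefSeq promoters held the cyclic AMP response element in 1.47% and the TATA box in 6.27%. Neither gene passed the threshold between cultures. The Btc window held none of the letters searched. GC boxes, which 31.0% of promoters hold, were in the windows of Areg, the Errfi1 start shown, Egfr and Tgfa. Epgn also had a TATA box, at 86 to 81 bases before the start. Erbb2 and the other Errfi1 start had a TEAD motif, held by 10.1%. AP-1 and E box letters, held by 5.48% and 5.26% of promoters, were in none of the 8 windows. These matches describe the letters in the windows and not binding.

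Other genes of the pathway were taken from lists, described by their counts beside the background of 50.5%. Among other ErbB ligands and receptors, Nrg1, a neuregulin that binds Erbb3, was the only one of 5 in the table with a mean of at least 1 TPM. It had 35.2 and 35.4 TPM in 2D and 43.0 and 39.0 TPM in 3D, and the log2 fold change was 0.21 (limma adjusted p 0.0559). Nrg1 passed after centring on the median (limma adjusted p 0.0458), quantile normalization (0.0382) and rescaling without mitochondrial and the 20 highest genes (0.0413). It did not pass with no filter (limma adjusted p 0.120), with the replicate block (0.0898) or with a constant prior variance (0.0816). With 1 library left out its log2 fold change ranged from 0.142 to 0.276. Egf itself was at 1.14 and 1.01 TPM in 2D and 0.827 and 1.00 TPM in 3D, and Nrg4 at no more than 0.528 TPM. Erbb4 was not analysed here.

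Of 10 tested genes for ligand shedding and its regulators, 5 were higher and 3 lower in 3D, with a median log2 fold change of 0.06. Adam8 and Adam12, metalloproteases of the family that sheds ligands, fell most. Adam8 had 104 and 117 TPM in 2D and 25.03 and 25.8 TPM in 3D (log2 fold change -2.07, limma adjusted p 0.000245). Adam12 had 74.8 and 82.8 TPM in 2D and 30.8 and 29.1 TPM in 3D (-1.37, limma adjusted p 0.000485). For both, the 3D libraries were far below the 2D libraries. Frmd8, which stabilises the sheddase complex at the cell surface, fell from a mean of 208 to 129 TPM (-0.68, limma adjusted p 0.000537), and Rhbdf2, which carries Adam17 out of the endoplasmic reticulum, rose from 118 to 144 TPM (0.28, limma adjusted p 0.00958). Adam9 had 211 and 185 TPM and did not pass (-0.18, limma adjusted p 0.142). Adam17, the main sheddase of Tgfa, Areg and Hbegf and named after its values were seen, had means of 41.9 and 47.4 TPM (0.18, limma adjusted p 0.0426), a call that was lost in each fit that left out a library (limma adjusted p 0.0895 to 0.191). Without 3D replicate 1, 5 of the 10 genes passed in place of 8. The call of Rhbdf2 was lost without either 3D replicate (limma adjusted p 0.0589 and 0.0551), and Adam9 passed without 2D replicate 1 (-0.30, limma adjusted p 0.0161).

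The next list was drawn up for receptor attenuation by ubiquitination, endocytosis, dephosphorylation or binding, but not all its genes attenuate the receptors directly. Of its 21 tested genes, 4 were higher and 3 lower in 3D (33.3% passing, median log2 fold change 0.07). Rab7, a GTPase of late endosomes, had 229 and 346 TPM in 2D and 519 and 511 TPM in 3D. The 3D libraries were above both 2D libraries, which stood apart from each other (0.87, limma adjusted p 0.0215, and 0.129 and 0.122 without either 3D replicate). Lrig2 rose from 10.1 to 12.8 TPM (0.31, limma adjusted p 0.0440, and 0.103 to 0.181 without 2D replicate 2 or either 3D replicate). The ubiquitin ligase Rnf126 (0.09, limma adjusted p 0.231) and the endocytic adaptor Epn1 (0.13, limma adjusted p 0.0586) did not pass. Epn1 passed after centring on the median (limma adjusted p 0.0359), quantile normalization (0.0301) and rescaling (0.0342). It did not pass with no filter (limma adjusted p 0.121), the replicate block (0.118) or a constant prior variance (0.140). With 1 library left out its log2 fold change ranged from 0.0966 to 0.165. As over all tested genes, the count of passing genes in this list fell in each fit that left out a library. It was 3 without 3D replicate 1 and 0 in the limma fit without 3D replicate 2, in which 6 genes had an unadjusted p under 0.05.

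Among 23 adaptors and kinases from the receptor to ERK and PI3 kinase, 5 were higher and 5 lower (43.5% passing, median log2 fold change 0.02). Ksr1, a scaffold of the ERK cascade, rose from 9.54 to 22.3 TPM (1.14, limma adjusted p 0.000647) and Pik3cb, a catalytic subunit of PI3 kinase, fell from 41.3 to 27.7 TPM (-0.56, limma adjusted p 0.00237). Hras fell from 226 to 174 TPM (-0.38, limma adjusted p 0.00320) and Map2k2, an ERK kinase, rose from 193 to 236 TPM (0.29, limma adjusted p 0.00773, and 0.0505 without 3D replicate 2). Akt1 had 229 and 225 TPM with overlapping libraries (-0.02, limma adjusted p 0.692).

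Genes known as targets or feedback inhibitors of ERK moved both ways, with 7 higher and 6 lower of 19 tested (68.4% passing, median log2 fold change 0.06). The AP-1 subunit Fosl1 had 564 and 630 TPM in 2D and 331 and 313 TPM in 3D (-0.89, limma adjusted p 0.000996), and the receptor tyrosine kinase Epha2 fell from 511 to 349.7 TPM (-0.55, limma adjusted p 0.00117). Cyclin D1 (Ccnd1) had 318 and 330 TPM in 2D and 553 and 548 TPM in 3D (0.77, limma adjusted p 0.000440). Ier3 rose from 98.7 to 192 TPM (0.95, limma adjusted p 0.000308) and Spry1, a feedback inhibitor, from 0.438 to 2.12 TPM (1.12, limma adjusted p 0.00499). Dusp6, an ERK phosphatase named after its values were seen, rose from 117 to 201.04 TPM (0.78, limma adjusted p 0.000447). For all 6 of these genes the libraries of the cultures did not overlap. That was also the case for 15 of the 19 tested genes of the list and for 77.5% of all tested genes. Genes named for a large change or after their values were seen were likely to be separated by that choice.

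**Figure D5:**
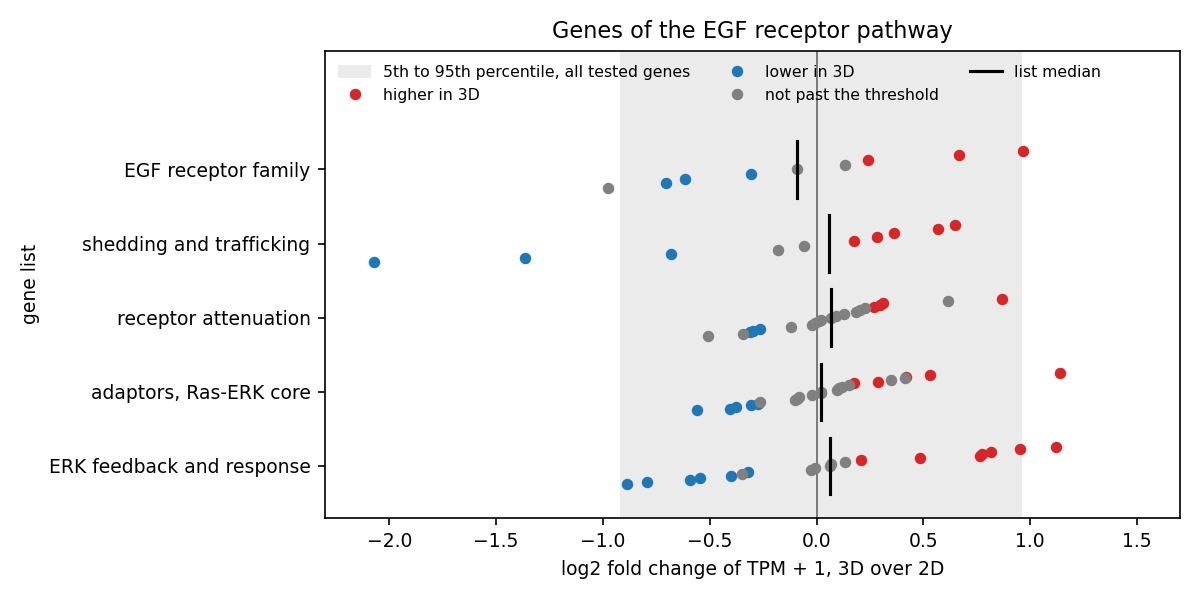
Log2 fold changes of 3D over 2D for tested genes of the family and of 4 pathway lists (other ErbB ligands and receptors are not drawn), with 1 point per gene in red (higher), blue (lower) or grey (not past the limma threshold), a black bar at each list's median and shading from -0.92 to 0.96, the 5th to the 95th percentile of all tested genes. Each list drawn has points on both sides of 0, and Adam8 at -2.07 is the lowest.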

How the data were processed

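Polyadenylated RNA of AML12 cells was sequenced in 4 libraries with a stranded kit. Per the study's methods and the submitters' processing notes, adapters and low-quality bases were removed with cutadapt 1.8.3 and Trimmomatic 0.36, HISAT2 2.0.5 aligned the reads to GRCm38, and StringTie 1.3.4 quantified the genes of Ensembl 93. The TPM values were deposited by the authors per library, without pooling. Depth is unknown, so no interval from counts was computed, and a TPM depends on all other genes of its library. The table also holds the fold change and p-value of the authors' DESeq2 comparison, which were not used.

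Genes with a mean of at least 1 TPM (14116 of 31828) were tested with limma 3.58.1 in R 4.3.3 on log2(TPM + 1), with culture as the only factor (lmFit, eBayes with trend and robust), two-sided, with Benjamini-Hochberg adjustment over all tested genes. With 2 libraries per culture the smallest exact permutation p is 0.333. The script was tested on simulated data. Levels, sums, shares and sequences were computed with Python 3.11.15, and figures drawn with matplotlib 3.10.9. Promoters come from RefSeq and coding stretches from GENCODE M21.

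The members and lists were chosen with earlier results of these data known. All members are named. From each other list the 3 genes of highest mean TPM and the 2 passing genes of largest change are named, with the genes most like the 2 passing members of largest change, genes of the ligand cluster and up to 3 markers per marker list. Albumin, Sox9, Cd68, Serpina1a, Apoa2, overlapping genes and genes beyond the cluster were named outside that rule. Erbb4, Etv1, Col1a2 and Lrat were not analysed here, and Hgs, listed in duplicate, was not counted. Alternatives were pseudocounts of 0.1 and 5, no filter or a mean of at least 5 TPM, quantile normalization, centring on the median, rescaling after removal of mitochondrial and the 20 highest genes, a replicate block, a constant prior variance, and each library left out in turn. The sum without Tgfa was added after seeing the data.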

Additional observations from a re-analysis of the deposited data

How the results depend on the processing

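Btc, Erbb2, Egfr and Hbegf passed the limma threshold in the same direction under every alternative. Of 117 values of the 9 tested members under these alternatives, 104 kept their direction and side of the threshold. Tgfa ranged from -2.35 to 0.39 with 1 library left out, the latter without 2D replicate 1. Akt1, at -0.02, turned to 0.0208 under quantile normalization and 0.00406 after rescaling, and ranged from -0.0594 to 0.0149 with 1 library left out. With no filter on low values Ereg (adjusted p 0.0740) and Erbb3 (0.0670) lost their calls and 2 attenuation genes passed in place of 7, in a fit that tests more genes. Same-numbered libraries did not deviate together (correlation -0.0549 over 14116 genes). The labels do not say whether they were prepared together, and this value cannot settle it. With the replicate block 6248 genes passed in place of 7122, Ereg (0.0750) and Erbb3 (0.0553) lost their calls, and 2 attenuation genes passed. Leaving out each library in turn left 4720 to 5954 genes passing (4720 without 3D replicate 1), 5 to 7 shedding genes and 0 to 6 attenuation genes. These fits have fewer samples and assume that the lone library varies like those of the other culture. TPM keep no depth, which limits low genes such as Epgn.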
